A study of Mus musculus with 8 samples.

Results

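The potassium channel genes described here are 9 in number: Kcnj2, Kcnj12, Kcnj3, Kcnj5, Kcnj11, Kcnj8, Abcc8, Abcc9 and Kcnk3. They were taken by symbol from a table of raw read counts for 24516 gene symbols, and all 9 were present and passed the filter on low counts that left 15075 genes for testing. The counts came from bulk RNA sequencing of whole mouse hearts at postnatal day 40 in 3 genotypes. HOMO hearts carried a CRISPR/Cas9 deletion of a conserved Actn2 enhancer on both alleles (3 libraries), HET hearts carried it on 1 allele (3 libraries), and WT hearts carried none (2 libraries). Actn2 encodes the sarcomeric Z-disc protein alpha-actinin. The labels give no other allele, drug or treatment in any group and say that the hearts share a litter. The sources used here do not give strain, sex, the number of founder lines or whether a library pooled animals.

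Inward rectifier potassium channels pass current more readily into the cell than out of it, because intracellular magnesium and polyamines block the pore at depolarised voltages. In heart muscle they hold the resting potential and shape the end of the action potential (the IK1 current, from KIR2 channels), slow the pacemaker when vagal acetylcholine frees G protein beta-gamma subunits (IKACh, from KIR3 channels), and open when ATP falls (KATP channels, in which KIR6 pores are surrounded by sulphonylurea receptors). The two-pore channel TASK-1, encoded by Kcnk3, carries a background potassium current and is known mainly from atrial muscle.

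Library totals ranged over 33197075 to 55902737 counts in HOMO, 22230090 to 31247412 in HET, and 25017723 and 30568468 in WT1 and WT2. WT2 stood apart: across genes it correlated with the 6 deletion libraries at r = 0.927 to 0.935 and with WT1 at 0.952, while WT1 correlated with the deletion libraries at 0.957 to 0.966 and the deletion libraries with each other at 0.969 to 0.982. Both comparisons against WT use the same 2 WT libraries, so their results are not independent of each other, and the calls on the 9 channel genes are also given without WT2. Actn2 had 2115, 1611 and 1791 CPM (read counts scaled to a library of 1e6 reads, scaled between libraries by TMM) in HOMO1 to HOMO3 and 1693, 1546 and 1638 CPM in HET1 to HET3, against 2187 and 2703 CPM in WT1 and WT2. Its log2 fold change was -0.41 in HOMO against WT (SE 0.16, adjusted p = 0.0771) and -0.59 in HET against WT (SE 0.16, adjusted p = 0.0193), so the HET comparison alone passed the threshold of 0.05. The HET call was lost without WT2 (-0.40, adjusted p = 0.128), without HET2 (-0.55, adjusted p = 0.0725) or HET3 (-0.59, adjusted p = 0.0595), and when only HET and WT libraries were fitted (-0.59, adjusted p = 0.0536). HOMO passed without WT1 (-0.55, adjusted p = 0.0200) and in DESeq2 (-0.41, adjusted p = 0.0342). After a correction for gene properties (GC content and the lengths of the transcript and its 3′ UTR), the values were -0.09 in HOMO (adjusted p = 0.712) and -0.28 in HET (adjusted p = 0.222). Adjusted p-values here and below are those of the edgeR quasi-likelihood test, corrected by Benjamini-Hochberg over the whole set of tested genes. The ventricular markers, such as Myh6 and Ttn, were all detected, with a summed level of 75750 to 83410 CPM in HOMO, 76220 to 79390 CPM in HET, and 85160 and 97590 CPM in WT. Of the 10 markers, 3 were higher in each deletion genotype (Ryr2, Ttn and Pln), and 2 were lower in HOMO and 3 in HET, among them Myl2 (-1.06 in HOMO and -0.91 in HET) and Tnni3 (-0.76 and -0.71). Without WT2 none of these markers was lower and 3 were higher in each, and after the correction none was lower and 2 were higher in each. The skeletal muscle myosin gene Myh4 had 0 counts in every library.

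In HOMO against WT hearts, 6 of the 9 channel genes were higher (Kcnj2, Kcnj12, Kcnj3, Kcnj5, Kcnj11 and Abcc9), none was lower and 3 did not pass the test, while 15.3% of all genes tested were higher and 12.4% lower. In HET against WT hearts, 5 were higher (Kcnj2, Kcnj12, Kcnj3, Kcnj5 and Abcc9), Kcnj8 was lower and 3 did not pass, while 15.2% of all genes were higher and 12.8% lower. The median log2 fold change of the 9 genes was 0.60 in HOMO against WT and 0.72 in HET against WT, beside -0.03 for all genes in both. In HOMO against HET, 0 of 9 passed, as did 0.00% of all genes. The genes form neither a random draw nor a test of a pathway, and their counts are given as a description beside these shares.

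**Figure D1:**
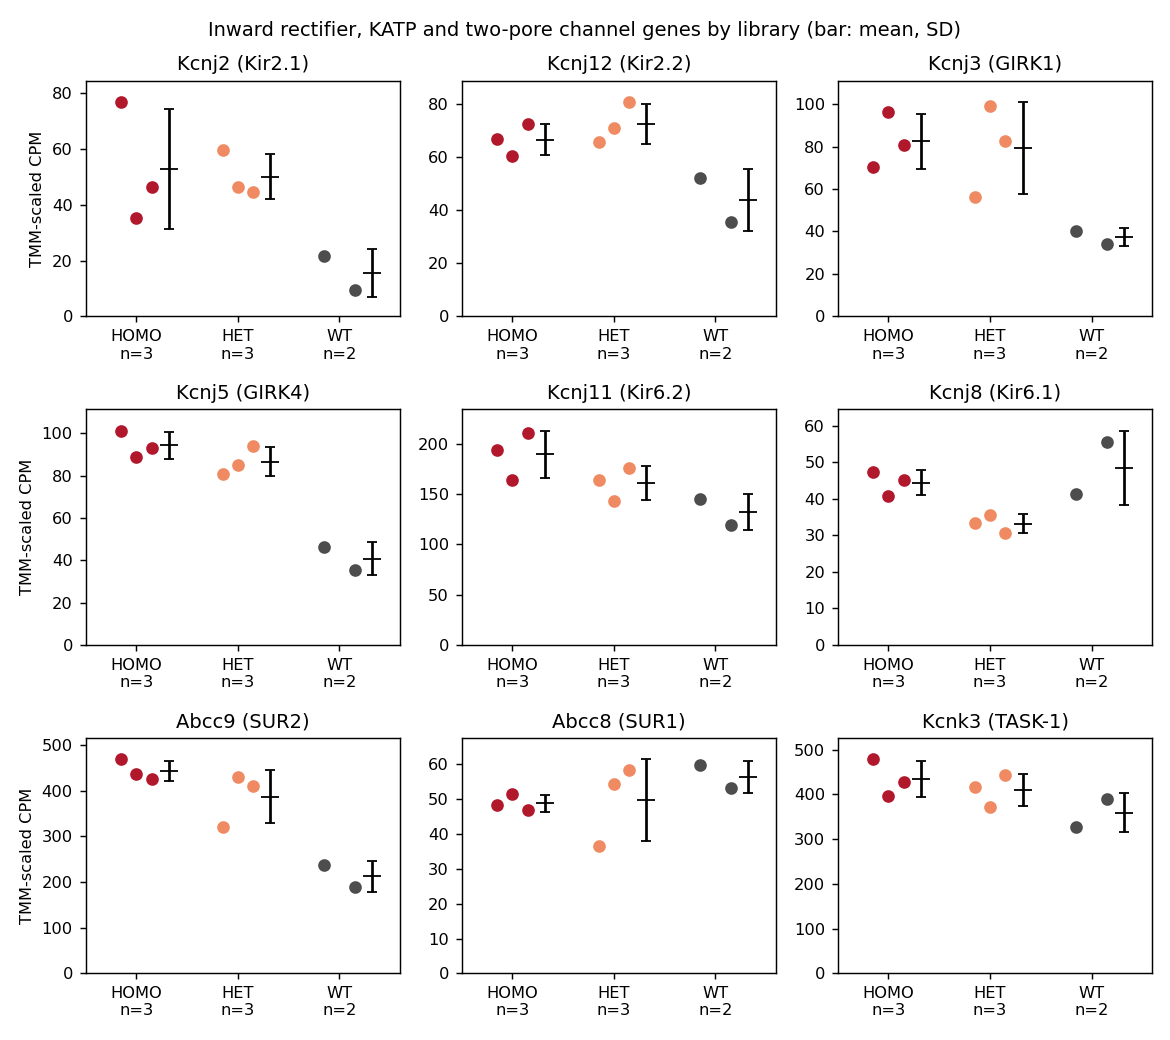
Level of each of the 9 channel genes in every library, as TMM-scaled CPM on a linear axis from 0, with HOMO, HET and WT libraries from left to right and the mean and SD of each genotype. Kcnj2, Kcnj12, Kcnj3, Kcnj5 and Abcc9 lie higher in all 6 deletion libraries than in both WT libraries, while Kcnj8 and Abcc8 do not.

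Promoter windows from RefSeq (build GRCm38.p6, 250 bases before to 50 bases after the annotated start) were available for 6 of the 9 genes. The 3 shown belong to the gene with the largest fold change of the 9 (Kcnj2) and to the neighbouring KATP genes Abcc9 and Kcnj8. With all libraries and no correction, Abcc9 was called higher in both deletion genotypes and Kcnj8 in neither. Kcnj2 is at chr11:111065914-111066213 on the plus strand, Abcc9 at chr6:142702225-142702524 and Kcnj8 at chr6:142571565-142571864, both on the minus strand, and all are written 5′ to 3′. Capitals mark the match to the MEF2 motif, the A/T-rich element bound by MEF2 factors in muscle.
Kcnj2: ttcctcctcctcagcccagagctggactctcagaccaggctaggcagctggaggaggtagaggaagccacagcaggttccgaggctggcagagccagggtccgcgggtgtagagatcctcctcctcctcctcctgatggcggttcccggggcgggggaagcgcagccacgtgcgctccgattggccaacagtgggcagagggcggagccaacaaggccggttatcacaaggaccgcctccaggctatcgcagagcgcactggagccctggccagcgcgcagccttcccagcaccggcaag
Abcc9: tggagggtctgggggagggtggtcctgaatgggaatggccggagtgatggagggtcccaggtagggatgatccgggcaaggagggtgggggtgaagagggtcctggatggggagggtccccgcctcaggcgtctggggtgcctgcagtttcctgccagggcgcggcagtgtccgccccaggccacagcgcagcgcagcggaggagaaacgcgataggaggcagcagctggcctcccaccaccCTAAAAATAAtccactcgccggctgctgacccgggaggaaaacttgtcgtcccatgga
Kcnj8: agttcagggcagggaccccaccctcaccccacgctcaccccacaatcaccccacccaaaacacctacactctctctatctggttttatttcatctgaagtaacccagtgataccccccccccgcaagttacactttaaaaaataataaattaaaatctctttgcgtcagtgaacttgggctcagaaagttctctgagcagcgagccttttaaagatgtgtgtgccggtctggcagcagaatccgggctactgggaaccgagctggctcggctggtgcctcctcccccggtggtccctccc
Searched on both strands, the MEF2 motif was found in the Abcc9 window alone among the 6, at offset -8 from the annotated start, and 3.19% of all 32851 windows of the same length hold it. The CArG box of serum response factor (1.63% of windows) and the letters TATAAA (13.6%) were in none of the 6. The E-box CANNTG, whose reverse complement is itself, was in 72.3% of all windows and in each of the 6. In the Kcnj2 window it was at offsets -206 and -84. A match of letters is a description and shows no binding.

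Kcnj2 and Kcnj12 encode KIR2.1 and KIR2.2, the pore subunits of IK1. Kcnj2 (ENSMUSG00000041695.2, mm10 chr11:111066164-111076821) had 76.7, 35.2 and 46.5 CPM in HOMO and 59.5, 46.4 and 44.6 CPM in HET, against 21.7 and 9.46 CPM in WT. All 6 deletion libraries lay above both WT libraries, HOMO1 was the highest and WT2 the lowest, and the WT libraries themselves were far apart. Its level was 3.39-fold higher in HOMO than in WT (log2 1.76, SE 0.42, adjusted p = 0.0162) and 3.22-fold higher in HET than in WT (log2 1.69, SE 0.42, adjusted p = 0.0186). Without WT2 the log2 fold changes were 1.31 in HOMO (adjusted p = 0.131) and 1.24 in HET (adjusted p = 0.142), so neither call held.

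Kcnj12 (ENSMUSG00000042529.14, chr11:61022564-61071131) had 66.8, 60.5 and 72.2 CPM in HOMO and 65.5, 70.7 and 80.4 CPM in HET, against 52.0 and 35.6 CPM in WT. The deletion libraries again lay above both WT libraries without overlap, over a narrower range than for Kcnj2. The log2 fold change was 0.60 in HOMO (SE 0.17, adjusted p = 0.0248) and 0.72 in HET (SE 0.17, adjusted p = 0.0113), and without WT2 it was 0.39 (adjusted p = 0.131) and 0.50 (adjusted p = 0.0523). In HOMO the call was also lost without HOMO1 (0.60, adjusted p = 0.0645) and without HOMO3 (0.54, adjusted p = 0.0856). The number of Kcnj2 reads for each Kcnj12 read was 1.15, 0.582 and 0.644 in HOMO and 0.909, 0.656 and 0.555 in HET, against 0.418 and 0.266 in WT. Every deletion library had a larger share of Kcnj2 than both WT libraries, before any correction for gene properties.

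**Figure D2:**
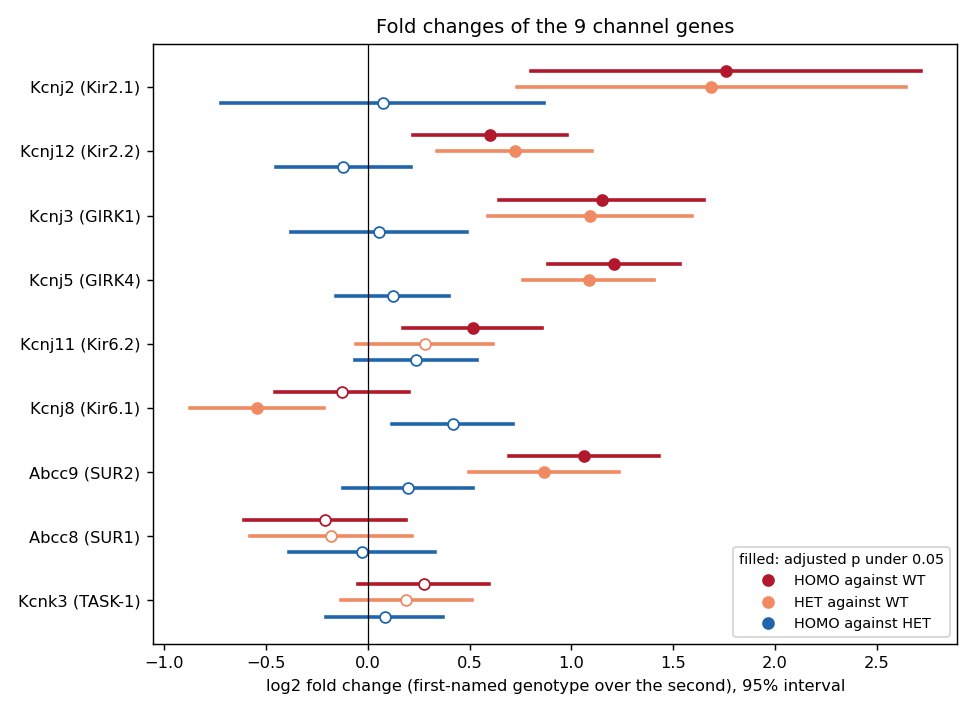
Log2 fold change of each channel gene with its 95% interval, for HOMO against WT, HET against WT and HOMO against HET, with filled points for adjusted p under 0.05 and 0 marking equal levels. Intervals of Kcnj2, Kcnj12, Kcnj3, Kcnj5 and Abcc9 lie above 0 in both comparisons against WT, and Kcnj8 is the 1 gene whose interval in HOMO against HET does not include 0.

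Kcnj3 and Kcnj5 encode KIR3.1 and KIR3.4 (GIRK1 and GIRK4), which assemble into the acetylcholine-gated channel of atrial and nodal cells. Kcnj3 (ENSMUSG00000026824.11, chr2:55435970-55598145) had 70.4, 96.2 and 80.8 CPM in HOMO and 56.3, 98.9 and 82.6 CPM in HET, against 40.2 and 34.2 CPM in WT. No deletion library overlapped WT, and HET1 came nearest to it. The level was 2.22-fold higher in HOMO (log2 1.15, SE 0.23, adjusted p = 0.00539) and 2.13-fold higher in HET (log2 1.09, SE 0.23, adjusted p = 0.00632). Without WT2 the log2 fold changes were 1.07 and 1.01, with adjusted p = 0.0660 in HOMO and 0.0731 in HET.

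Kcnj5 (ENSMUSG00000032034.6, chr9:32314707-32344350) had 101.1, 88.7 and 93.0 CPM in HOMO and 80.7, 85.1 and 93.9 CPM in HET, against 46.4 and 35.2 CPM in WT. The lowest deletion library was well above the higher WT library, and the spread inside each genotype was small beside that gap. Kcnj5 was 2.31-fold higher in HOMO (log2 1.21, SE 0.15, adjusted p = 0.000539) and 2.12-fold higher in HET (log2 1.09, SE 0.15, adjusted p = 0.000763). Without WT2 it was still called, at log2 1.06 in HOMO (adjusted p = 0.00129) and 0.93 in HET (adjusted p = 0.00220). The ratio between the 2 subunits moved little: the log2 ratio of Kcnj3 to Kcnj5 reads averaged -0.20 ± 0.32 in HOMO (SD, n = 3), -0.16 ± 0.37 in HET (SD, n = 3) and -0.12 ± 0.12 in WT (SD, n = 2). The difference between the 6 deletion libraries and the 2 WT libraries was -0.06 (exact permutation test, two-sided, p = 0.857), which is within the spread between libraries.

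Atrial markers did not move with the KIR3 genes. Of 8 atrial markers tested, 5 were lower and none higher in each deletion genotype against WT, with a median log2 fold change of -2.21 in HOMO and -1.94 in HET. Their summed level was 134.7 to 391.4 CPM in HOMO and 128.4 to 449.8 CPM in HET, against 360.8 and 629.3 CPM in WT. Most of the WT sum was Nppa, which was not called (adjusted p = 0.411 in HOMO and 0.623 in HET). Nppa averaged 215.1 CPM in HOMO and 273.4 CPM in HET, against 282.6 and 514.3 CPM in WT. Myl7, the atrial myosin light chain, averaged 0.274 CPM in HOMO and 0.496 CPM in HET, against 6.59 and 14.2 CPM in WT. Sln, the atrial calcium pump inhibitor sarcolipin, had 0 counts in every HET library, against 2.93 and 5.27 CPM in WT. Bmp10 reached at most 4 counts in any library. Myl7, Sln and Bmp10 were thus low in WT as well. Hcn4, the pacemaker channel gene of the conduction system, averaged 9.42 CPM in HOMO and 9.23 CPM in HET, against 5.01 and 1.46 CPM in WT. It was higher in HOMO (log2 1.55, adjusted p = 0.0325) and HET (log2 1.52, adjusted p = 0.0349). Both calls were lost without WT2 (adjusted p = 0.107 and 0.112), and the HOMO call was also lost without any 1 of the HOMO libraries (0.0586 to 0.0781). The HET call was also lost without any 1 of the HOMO libraries or HET3 (0.0501 to 0.0978) and when only HET and WT libraries were fitted (0.0802). Hcn4 was the 1 conduction marker called of 8 tested, and the median of that list was -0.39 in HOMO and -0.35 in HET. Bulk RNA cannot tell fewer cells of a type from less RNA per cell, and the part of tissue sampling in the channel results was not tested.

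Kcnj11 and Kcnj8 encode the KATP pores KIR6.2 and KIR6.1, and Abcc8 and Abcc9 encode the regulatory subunits SUR1 and SUR2. Each pore gene is a neighbour of 1 receptor gene: Kcnj11 (ENSMUSG00000096146.2, chr7:46093953-46100764) lies 3758 bases from Abcc8 (ENSMUSG00000040136.10, chr7:46104523-46180033). Kcnj8 (ENSMUSG00000030247.9, chr6:142564837-142571614) lies 16247 bases from Abcc9 (ENSMUSG00000030249.15, chr6:142587862-142702315). All 4 are on the minus strand. Ventricular muscle is known to use mainly KIR6.2 with SUR2A, and vascular smooth muscle and pericytes KIR6.1 with SUR2B.

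Abcc9 had 468.6, 436.5 and 425.1 CPM in HOMO and 320.4, 429.9 and 410.8 CPM in HET, against 236.4 and 188.1 CPM in WT. No deletion library overlapped WT, with HET1 the lowest of the 6. Abcc9 was 2.09-fold higher in HOMO (log2 1.06, SE 0.17, adjusted p = 0.00179) and 1.82-fold higher in HET (log2 0.87, SE 0.17, adjusted p = 0.00415). Without WT2 both calls held, at log2 0.94 in HOMO (adjusted p = 0.00687) and 0.74 in HET (adjusted p = 0.0184). Abcc9 has several transcripts, and gene-level counts do not separate SUR2A from SUR2B.

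Abcc8 had 48.2, 51.5 and 46.8 CPM in HOMO and 36.4, 54.5 and 58.3 CPM in HET, against 59.7 and 53.2 CPM in WT. All HOMO libraries lay below both WT libraries, while HET libraries overlapped them. The log2 fold change was -0.21 in HOMO (95% interval -0.61 to 0.19, adjusted p = 0.417) and -0.18 in HET (SE 0.18, adjusted p = 0.488). The number of Abcc9 reads for each Abcc8 read was 9.72, 8.48 and 9.09 in HOMO and 8.79, 7.89 and 7.04 in HET, against 3.96 and 3.54 in WT. Thus the balance of the receptor genes was shifted towards Abcc9 in every deletion library. On the log2 scale the deletion libraries exceeded WT by 1.18 (exact permutation test, two-sided, p = 0.0714, the smallest p that 28 splits of 6 against 2 libraries allow).

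Kcnj11 had 193.5, 164.2 and 210.6 CPM in HOMO and 163.6, 142.9 and 176.0 CPM in HET, against 145.3 and 119.7 CPM in WT. HOMO libraries did not overlap WT, and HET2 lay just under WT1. The log2 fold change was 0.52 in HOMO (SE 0.15, adjusted p = 0.0301) and 0.28 in HET (SE 0.15, adjusted p = 0.1995). The HOMO call was lost without WT2 (0.42, adjusted p = 0.137), without HOMO1 (0.50, adjusted p = 0.0815), without HOMO3 (0.43, adjusted p = 0.108) and when only HOMO and WT libraries entered the fit (0.53, adjusted p = 0.0525).

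Kcnj8 had 47.3, 40.7 and 45.2 CPM in HOMO and 33.4, 35.6 and 30.6 CPM in HET, against 41.3 and 55.6 CPM in WT. HET libraries were the lowest and overlapped neither of the other genotypes, while HOMO libraries overlapped the WT values. The log2 fold change was -0.13 in HOMO (95% interval -0.46 to 0.20, adjusted p = 0.565) and -0.54 in HET (SE 0.15, adjusted p = 0.0207). Without WT2 the HET value was -0.28 (adjusted p = 0.238), and the HOMO value turned to 0.14 (adjusted p = 0.605). The HET call was also lost without HET1 (-0.52, adjusted p = 0.0519), without HET3 (-0.49, adjusted p = 0.0754) and when only HET and WT libraries entered the fit (-0.55, adjusted p = 0.0609).

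Some markers of the cells known to use KIR6.1 also differed between genotypes. Of 12 pericyte and smooth muscle markers, 6 were lower in HOMO against WT and 7 in HET against WT, and none was higher, with median log2 fold changes of -0.83 and -0.89. Their summed level was 1233 to 1430 CPM in HOMO and 1252 to 1594 CPM in HET, against 1490 and 1807 CPM in WT, and none was at 0 in all libraries. Rgs5 made up the largest part of this sum and was not called (log2 0.15 in HOMO and 0.38 in HET). It averaged 849.0 CPM in HOMO and 994.8 CPM in HET, against 643.7 and 887.9 CPM in WT. Pdgfrb, Cspg4, Notch3 and Mcam leaned lower without a call, while Vtn, Higd1b and Ndufa4l2 were called lower in both. Myh11, the smooth muscle myosin, averaged 31.5 CPM in HOMO and 28.7 CPM in HET, against 70.3 and 161.9 CPM in WT. Cnn1, the contractile protein calponin, averaged 0.874 CPM in HOMO and 0.651 CPM in HET, against 4.94 and 14.7 CPM in WT. Both were higher in WT2 than in WT1. Without WT2, 2 of these markers were lower in HOMO, and 3 were lower and 1 higher in HET. After a correction for transcript and 3′ UTR length and GC content, 3 were lower in each. Their part in the Kcnj8 result was not tested.

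Within a library the pore genes can be set against each other without any scaling between libraries. Kcnj11 had 4.09, 4.03 and 4.66 reads for each Kcnj8 read in HOMO and 4.90, 4.01 and 5.75 in HET, against 3.52 and 2.15 in WT. Kcnj8 had 0.101, 0.0933 and 0.106 reads for each Abcc9 read in HOMO and 0.104, 0.0829 and 0.0746 in HET, against 0.175 and 0.296 in WT. For Kcnj11 and Abcc9 the figure was 0.413, 0.376 and 0.496 in HOMO and 0.511, 0.333 and 0.429 in HET, against 0.615 and 0.636 in WT. In all 3 ratios no deletion library overlapped WT, so each deletion library held more Abcc9 reads for each read of both pore genes. These 3 ratios are built from the same 3 genes and are not separate results. How often ratios of other gene pairs separate in this way was not computed. Of 6 ratios compared, all but Kcnj3 to Kcnj5 reached the smallest p the design allows (0.0714, and 0.0857 after Benjamini-Hochberg adjustment over the 6), which is above 0.05. The mean log2 differences of deletion from WT libraries were 1.11 for Kcnj2 to Kcnj12, 0.72 for Kcnj11 to Kcnj8, -0.57 for Kcnj11 to Abcc9 and -1.29 for Kcnj8 to Abcc9. Without WT2 the Kcnj11 to Kcnj8 difference was 0.36. When the correction for gene properties was applied to both genes of each pair, a step added after seeing the data, Kcnj11 to Abcc9 turned to 0.21 and Kcnj2 to Kcnj12 fell to 0.15, and both then overlapped between deletion and WT libraries. The differences were then 0.75 for Kcnj11 to Kcnj8, 0.53 for Abcc9 to Abcc8, -0.54 for Kcnj8 to Abcc9 and -0.38 for Kcnj3 to Kcnj5, and the first 3 of these still did not overlap.

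**Figure D3:**
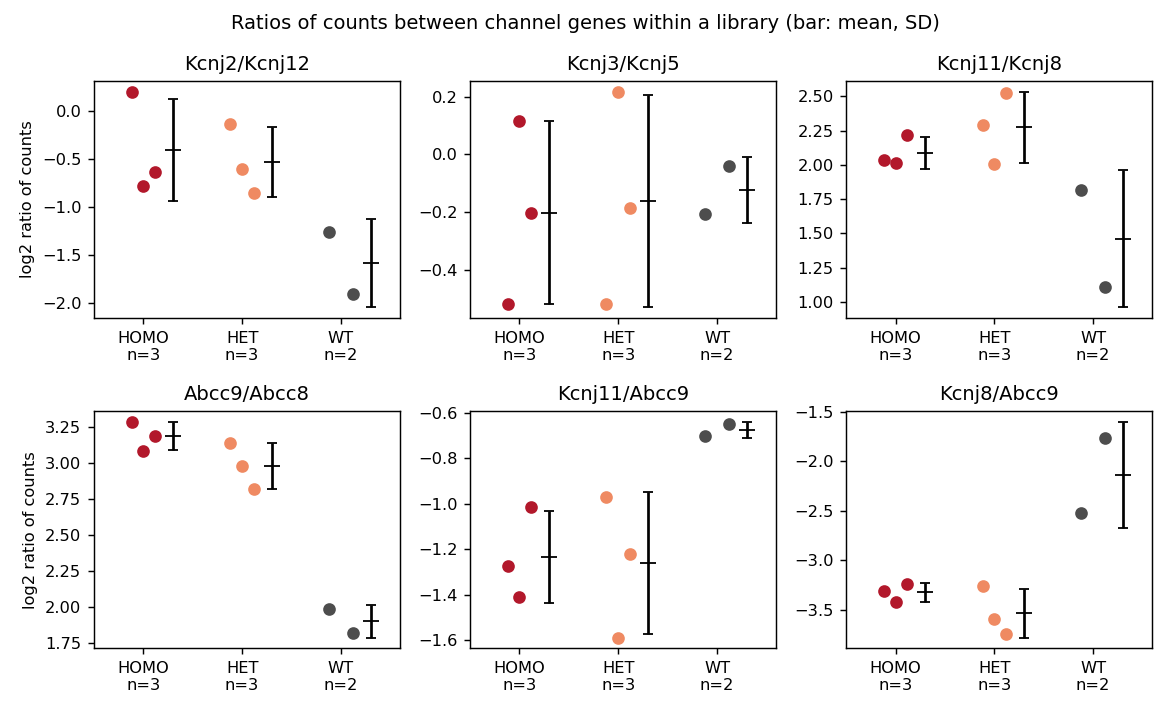
Log2 ratio of the read counts, not corrected for gene properties, of 6 pairs of channel genes in each library, with HOMO, HET and WT libraries from left to right. The deletion libraries and the WT libraries do not overlap in any pair but Kcnj3 to Kcnj5.

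Kcnk3 (ENSMUSG00000049265.7, chr5:30588170-30625271) had 478.0, 396.8 and 427.4 CPM in HOMO and 415.3, 370.6 and 442.5 CPM in HET, against 328.0 and 389.8 CPM in WT. HOMO libraries lay just above WT2, and HET libraries overlapped WT. The log2 fold change was 0.27 in HOMO (95% interval -0.05 to 0.60, adjusted p = 0.189) and 0.19 in HET (SE 0.15, adjusted p = 0.363). Here WT2 was the higher of the WT libraries, unlike in the 6 genes called higher in HOMO.

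CPM ranges of HOMO and WT libraries did not overlap for 8 of the 9 genes, 7 of them higher and Abcc8 lower in HOMO, where 27.6% of all genes lay higher and 27.2% lower without overlap. In HET against WT the ranges were apart for 6 genes, 5 higher and Kcnj8 lower, beside 25.7% and 25.6% of all genes. Between HOMO and HET the ranges were apart for Kcnj8 alone, with HOMO higher, beside 6.19% of all genes in that direction. The Kcnj8 difference of HOMO from HET was 0.42 on the log2 scale (SE 0.13, 95% interval 0.12 to 0.72), with an unadjusted p of 0.0102 and an adjusted p of 0.9996. For the other 8 genes the log2 differences of HOMO from HET ran from -0.12 for Kcnj12 to 0.24 for Kcnj11. The intervals of Kcnj5 (-0.15 to 0.40), Kcnj12 (-0.45 to 0.21) and Abcc9 (-0.12 to 0.52) leave room for moderate differences in either direction, and that of Kcnj2 (-0.72 to 0.87) for a large one. Over all genes, edgeR called 0 between HOMO and HET, DESeq2 called 3 and limma-voom 0, and 411 genes had an unadjusted p under 0.05 in edgeR.

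Read counts per kilobase of exon (TMM-scaled CPM divided by the length of all annotated exons joined) allow levels of different genes to be set side by side. Kcnk3 had the highest level per kb in every genotype, at 109 ± 10.3 in HOMO (SD, n = 3), 103 ± 9.13 in HET (SD, n = 3) and 90.3 ± 11.0 in WT (SD, n = 2). Abcc9 came next in HOMO (53.0 ± 2.70) and HET (46.2 ± 6.99), but below Kcnj11 in WT (25.4 ± 4.08). Kcnj11 stood at 51.5 ± 6.38 in HOMO, 43.7 ± 4.54 in HET and 36.0 ± 4.92 in WT. The libraries of Abcc9 and Kcnj11 overlapped in HOMO and HET and did not overlap in WT, where Kcnj11 was higher.

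The lower part of the order also differed between genotypes. In WT it ran Kcnj8 (19.0 ± 3.98 CPM per kb), Kcnj12 (15.9 ± 4.23), Kcnj5 (8.71 ± 1.68), Kcnj3 (7.14 ± 0.81), Abcc8 (6.98 ± 0.57) and Kcnj2 (2.87 ± 1.60). Neighbours from Kcnj8 to Kcnj12 and from Kcnj5 to Abcc8 overlapped between libraries, whereas Kcnj2 lay below all others. In HOMO the order was Kcnj12 (24.2 ± 2.14), Kcnj5 (20.1 ± 1.34), Kcnj8 (17.4 ± 1.32), Kcnj3 (15.8 ± 2.48), Kcnj2 (9.70 ± 3.95) and Abcc8 (6.03 ± 0.30). Thus the mean of Kcnj8 stood above those of Kcnj12 and Kcnj5 in WT and below both in HOMO. Libraries of Kcnj8 and Kcnj3 overlapped in HOMO, as did those of Kcnj3 and Kcnj2, and other neighbours in this stretch did not. In HET it was Kcnj12 (26.3 ± 2.75), Kcnj5 (18.5 ± 1.44), Kcnj3 (15.2 ± 4.12), Kcnj8 (13.0 ± 0.99), Kcnj2 (9.22 ± 1.50) and Abcc8 (6.15 ± 1.44). Kcnj3 overlapped Kcnj5 and Kcnj8 in HET, and other neighbours in this stretch did not. The order depends on the length used. With the longest transcript, Kcnj11 (60.3) stood above Abcc9 (59.1) in HOMO. The joined exons of Abcc8 (8090 bases) are much longer than its longest transcript (4877 bases). With the longest transcript, Kcnj2 and Abcc8 therefore change places in HOMO and HET. In WT, Abcc8 (11.6) then stood above Kcnj5 (8.71) and Kcnj3 (7.14). Kcnj2 was then last in all 3 genotypes.

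**Figure D4:**
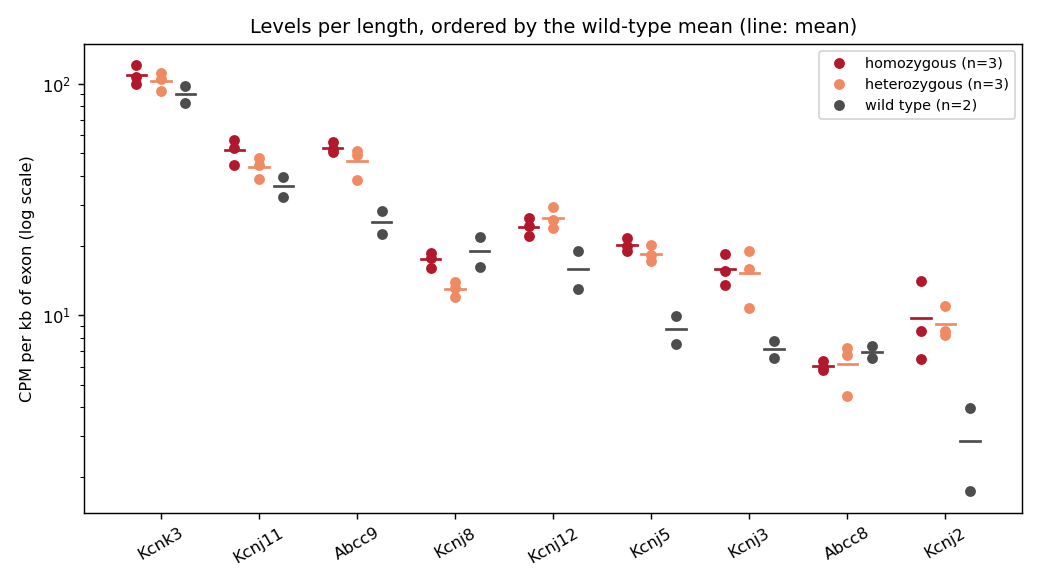
Level of the 9 channel genes in CPM per kilobase of joined exons on a log axis, 1 point for each library, with HOMO, HET and WT side by side for each gene. Kcnk3 is highest in all genotypes, and Kcnj2 is lowest in WT and just above Abcc8 in HOMO and HET.

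Xist, the RNA of the inactive X chromosome, was high in HOMO2, HET2, HET3 and WT2 and low in the other 4 libraries, so each WT library is the only one of its kind and sex cannot be told apart from the difference between WT1 and WT2. Kcnj2 had 46.5 to 76.7 CPM in the 3 Xist-low deletion libraries against 21.7 CPM in WT1, and 35.2 to 46.4 CPM in the 3 Xist-high deletion libraries against 9.46 CPM in WT2. Kcnj3 had 56.3 to 80.8 CPM in the Xist-low deletion libraries against 40.2 CPM, and 82.6 to 98.9 CPM in the Xist-high ones against 34.2 CPM. Kcnj12, Kcnj5, Kcnj11 and Abcc9 likewise lay above the WT library of the same kind in all 3 deletion libraries of both kinds. For Kcnj8, the log2 ratio of the deletion mean to WT was 0.02 among Xist-low and -0.64 among Xist-high libraries, and for Kcnk3 it was 0.42 and 0.05. There is 1 WT library in each, so these ratios have no replicate check.

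Fold changes against WT followed gene properties across the whole table. With the genes cut into 4 equal groups by transcript length, from shortest to longest, the median log2 fold change ran from -0.40 to 0.35 in HOMO and from -0.39 to 0.34 in HET. In 4 such groups by GC content, from lowest to highest, it ran from 0.37 to -0.38 in HOMO and from 0.41 to -0.41 in HET. Kcnj2 is at the 8.03 percentile of GC content and the 90.1 percentile of 3′ UTR length, and Abcc9 is at the 93.3 percentile of transcript length. Kcnj12, Kcnj11 and Kcnk3, in contrast, are at the 82.8, 85.4 and 92.8 percentiles of GC content.

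When the trend of each library with these properties (length of transcript and 3′ UTR, and GC content) was removed by an offset in the fit, some fold changes shrank and others grew. In HOMO the log2 fold change of Kcnj2 was 1.21 (adjusted p = 0.0870), that of Kcnj3 0.68 (adjusted p = 0.0471) and that of Abcc9 0.56 (adjusted p = 0.0198). Kcnj12 (0.96, adjusted p = 0.00830), Kcnj11 (0.77, adjusted p = 0.0110) and Kcnk3 (0.49, adjusted p = 0.0423) were larger than before, and Kcnj5 was 1.06 (adjusted p = 0.00128). So 6 genes were called higher in HOMO, with Kcnk3 in place of Kcnj2, beside 8.36% of all genes. In HET, 3 were called higher, namely Kcnj12 (1.10, adjusted p = 0.00498), Kcnj5 (0.95, adjusted p = 0.00207) and Kcnj11 (0.57, adjusted p = 0.0367), beside 7.83% of all genes. Kcnj2 (1.10, adjusted p = 0.116), Kcnj3 (0.61, adjusted p = 0.0707), Abcc9 (0.37, adjusted p = 0.0888) and Kcnj8 (-0.30, adjusted p = 0.209) were not.

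Without WT2 and with no such correction, 2 genes were called higher in HOMO and the same 2 in HET, Kcnj5 and Abcc9, beside 10.1% and 10.5% of all genes. With the correction and without WT2, they were Kcnj12 (0.70 in HOMO and 0.83 in HET) and Kcnj5 (0.93 and 0.83). Over all genes, fewer were called higher in this setting than in the settings given before it. Kcnj5 was therefore the 1 gene of the 9 called in both comparisons under all 4 of these treatments of the data.

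**Figure D5:**
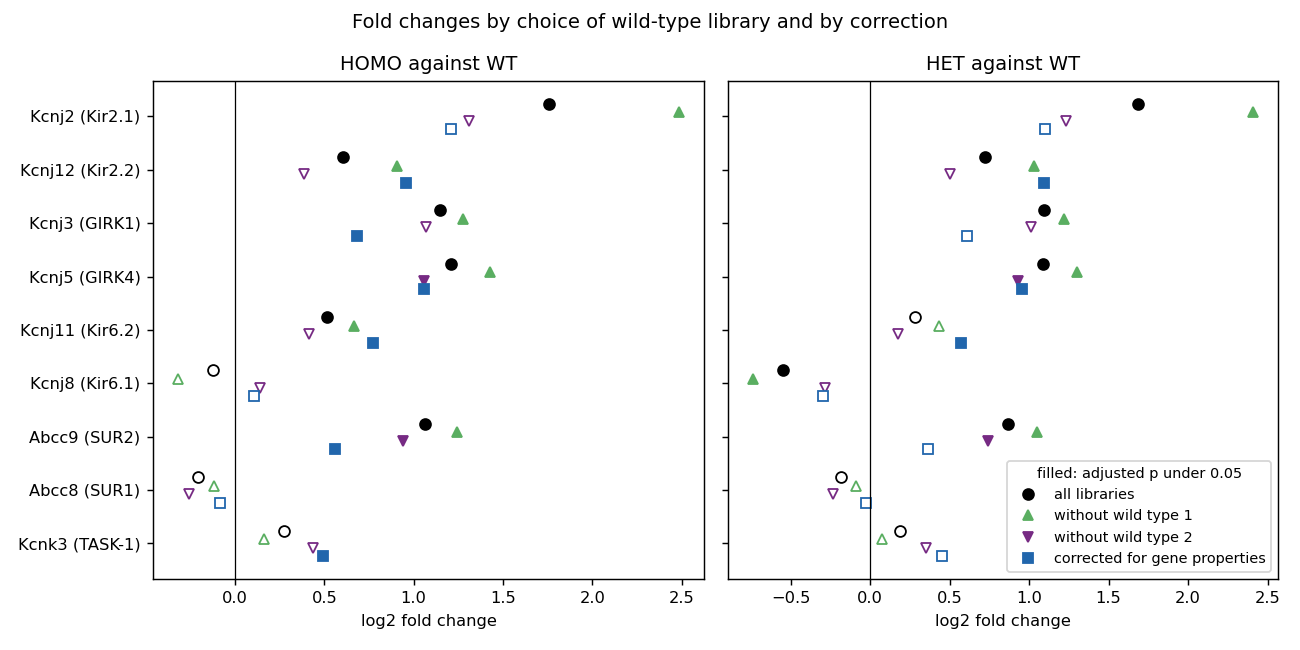
Log2 fold change of each channel gene in HOMO against WT and HET against WT with all libraries, without WT1, without WT2 and after correction for gene length, 3′ UTR length and GC content, filled where the adjusted p was under 0.05. Kcnj5 stays between 0.93 and 1.43 throughout, whereas Kcnj2 ranges over 1.10 to 2.49.

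Genes that act on these channels were counted next. Over all genes tested, 15.3% were higher and 12.4% lower in HOMO, and 15.2% and 12.8% in HET, with medians of -0.03. After the correction for gene properties, 8.36% were higher in HOMO and 7.83% in HET. Of 14155 genes, 811 were then lower in HOMO and 801 in HET. These shares apply to every list counted in this report with all 8 libraries. Without WT2 fewer genes were called over the whole table, so list counts without WT2 are not to be set against these shares. The acetylcholine-gated channel is opened by the M2 receptor through its G protein. Of 21 genes of this input, 2 were higher and 3 lower in HOMO, and 2 higher and 2 lower in HET, with median log2 fold changes of 0.10 and 0.06. Without WT2, 2 were higher and 1 lower in HOMO, and 3 higher and 1 lower in HET. After the correction for gene properties, 1 was higher and 3 lower in each. Chrm2, the M2 receptor itself, averaged 71.9 CPM in HOMO and 63.8 CPM in HET, against 7.48 and 3.85 CPM in WT (log2 3.67, adjusted p = 6.47e-05 in HOMO, and 3.50, adjusted p = 7.17e-05 in HET). Rgs6, which speeds the shut-off of the G protein, averaged 30.2 CPM in HOMO and 29.3 CPM in HET, against 15.8 and 16.9 CPM in WT (log2 0.88, adjusted p = 0.00792, and 0.84, adjusted p = 0.00945). After the correction Rgs6 was not called (0.63, adjusted p = 0.0539, and 0.61, adjusted p = 0.0635). Gnb2, a G protein beta subunit, was lower, with 122.1 CPM in HOMO and 118.3 CPM in HET, against 213.1 and 288.2 CPM in WT (log2 -1.04 and -1.08, adjusted p = 0.000915 and 0.00069). With all libraries and no correction, Chrm2, Kcnj3 and Kcnj5 were thus called higher, and Gnb2 was among the G protein genes called lower. The Kcnj3 calls were lost without WT2, and its HET call also after the correction (0.61, adjusted p = 0.0707). The Gnb2 call in HOMO was lost when the correction and the removal of WT2 were combined (-0.33).

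Among 21 genes of channel anchoring and trafficking, 12 were higher in each deletion genotype, and 2 were lower in HOMO and 1 in HET, with medians of 0.55 and 0.56. Dmd, the membrane scaffold dystrophin, averaged 244.2 CPM in HOMO and 228.6 CPM in HET, against 73.8 and 57.6 CPM in WT (log2 1.90, adjusted p = 5.6e-05 in HOMO, and 1.80, adjusted p = 7.17e-05 in HET). Golga4, a golgin of the trans-Golgi network, averaged 828.3 CPM in HOMO and 855.4 CPM in HET, against 349.2 and 316.6 CPM in WT (log2 1.32, adjusted p = 0.000283, and 1.36, adjusted p = 0.000203). Both genes were thus higher in both deletion genotypes. Sntb2, a dystrophin-binding syntrophin, rose by 1.25 in HOMO and 1.21 in HET on the log2 scale, and Arcn1, a subunit of the COPI coat, by 0.78 and 0.87. After the correction for gene properties, 6 genes of this list were higher in HOMO and 5 in HET, and 2 were lower in each. Without WT2, 11 were higher in each, none was lower in HOMO and 1 was lower in HET. After the correction Dmd stood at 1.04 in HOMO and 0.90 in HET.

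Inward rectifiers need the membrane lipid PIP2 to open. Of 16 genes of PIP2 supply and breakdown, 5 were higher in each deletion genotype and none lower, with medians of 0.24 and 0.18. They included the kinase genes Pip4k2b (log2 0.78 in HOMO and 0.58 in HET) and Pip5k1b (0.62 and 0.51) and the phospholipase gene Plcb4 (1.16 and 1.33). After the correction 3 genes of the list were higher and 1 lower in HOMO, with 2 higher in HET. Without WT2, 3 were higher in HOMO and 2 in HET. Pip5k1b then lost both calls (adjusted p = 0.0889 in HOMO and 0.188 in HET), and Pip4k2b lost that in HET (0.0722).

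Other inward rectifier genes were nearly silent. Of 9 such genes, 6 passed the filter, none was called in either comparison against WT, and their summed level was 4.06 to 5.42 CPM in HOMO and 4.04 to 5.54 CPM in HET, against 4.78 and 2.70 CPM in WT. Kcnj1 and Kcnj16, which flank Kcnj5 and Kcnj2 in the genome, did not pass the filter and reached at most 9 and 4 counts in any library. Of 13 other two-pore channel genes 7 passed the filter. None of these was called in HOMO. In HET, Kcnk13, the halothane-inhibited channel THIK-1, was higher (log2 1.85, adjusted p = 0.00927) and Kcnk2, the stretch-sensitive channel TREK-1, lower (log2 -0.99, adjusted p = 0.0447). Without WT2 the adjusted p of Kcnk13 was 0.0541. The Kcnk2 call was lost without any 1 library other than WT2 (adjusted p = 0.0533 to 0.220), after the correction (0.0716), in limma-voom (0.0539), with scaling by total counts (0.0599) and when only HET and WT libraries were fitted (0.0865).

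Over the 8 libraries, levels of Kcnj5 and Abcc9 ran together (r = 0.974 on log2 CPM), as did those of Kcnj3 and Abcc9 (0.941) and of Kcnj2 and Kcnj5 (0.929). Kcnj8 ran against Kcnj12 (-0.72) and its neighbour Abcc9 (-0.41). Among 13109 genes with a mean of at least 1 CPM, those most like Kcnj5 were Sptb (0.999), Nt5dc3 (0.997) and Rap1gap2 (0.996), those most like Abcc9 were Ank2 (0.995), Birc6 (0.992) and Ctnnd1 (0.992), and those most like Kcnj2 were Gatc (0.992), Slc25a15 (0.988) and Idh3a (0.988). For Kcnj12 they were Ttc9c (0.995), Rbsn (0.986) and Yy1 (0.986), and for Kcnj3 Macf1 (0.987), Pgm5 (0.985) and Zfpm2 (0.983). Kcnj11 was most like Dtx3l (0.976), Paqr9 (0.974) and Gna11 (0.968), and Kcnj8 most like Pcdhb7 (0.965), Ggn (0.958) and Trib3 (0.949). Abcc8 was most like Pitpna (0.984), Mir6999 (0.963) and Sgip1 (0.951), and Kcnk3 most like Dtwd1 (0.967), Prkce (0.929) and Trabd2b (0.922). These values rest on 8 points that share library effects and the gap between WT and deletion libraries, and are a description only.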

How the data were processed

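Total RNA of 8 mouse hearts was extracted with Trizol and sequenced from TruSeq libraries on a HiSeq instrument, per the labels. The authors deposited raw read counts per gene symbol, 1 column for each library, without normalization. The tools named in the submitters' processing notes are Trimmomatic 0.36, HISAT2, featureCounts of Subread, and DESeq2, with build mm10. Annotation, strandedness and treatment of multi-mapping reads: not given in the sources used here. Exons of Kcnj3, Abcc9 and Kcnk3 overlap an annotated gene on the opposite strand by 1621, 158 and 229 bases, and without strand such reads cannot be told apart.

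In R 4.3.3 with edgeR 4.0.16, low-count genes were dropped (filterByExpr), and libraries were TMM-scaled and fitted with all 8 libraries in 1 robust quasi-likelihood model on genotype, with Benjamini-Hochberg adjustment over the 15075 genes and a threshold of 0.05. Pair ratios used counts plus 0.5 and a two-sided exact permutation test of 6 against 2 libraries. Alternatives used DESeq2 1.42.0, limma-voom (limma 3.58.1), other scalings, filters and sample sets, each library left out, a term for sex by Xist level (added after seeing the data), and per-library offsets from splines (4 df) of GC content and of the lengths of transcript and 3′ UTR. Gene positions and properties were from GENCODE vM21 (98.5% of symbols found), and promoters from RefSeq. The fits were checked on simulated data. Library pairs differed beyond counting noise, so none is a duplicate.

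The 9 genes, the lists and the tests were chosen with earlier results of these data known. Genes named were the 9, Actn2, up to 4 genes of each list with the smallest p in HOMO against WT, and for each of the 9 the 3 genes of highest r. Some genes that the rule does not name were named beside counts after their values were seen. They are Kcnj1, Kcnj16, Nppa, Tnni3, Myh6, further pericyte and smooth muscle markers, and markers at 0 or below the filter. Of the genes the rule picks, 1 is not reported here. Since the labels name a shared litter but not separate animals, p-values measure the spread between these libraries, which for WT rests on 2. Replicate numbers were not used to pair the libraries in the main fit. Deviations of libraries from their genotype means were correlated between genotypes. The values ran from -0.02 to 0.18 for same-numbered libraries and from -0.23 to 0.13 for others. With 2 WT libraries the values for WT1 and WT2 mirror each other, so this check cannot decide whether numbers mark pairs.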

Additional observations from a re-analysis of the deposited data

How the results depend on the processing

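Among the alternative values of the 9 genes in each comparison against WT, 162 kept direction and side of the threshold in both HOMO and HET, 14 in HOMO and 16 in HET lost the call, and 1 in each gained it. The genes called numbered 2 in HOMO and 2 in HET without WT2, and again 2 and 2 when the correction for gene properties was added to that. With the correction alone, 3 were called in HET. Leaving out each library in turn gave 2 to 6 called in both. With the replicate number as a block, 6 were called in HOMO, 5 in HET and 0 in HOMO against HET, and Kcnj8 in HET was the call lost (-0.52, adjusted p = 0.0567). Signs turned for Kcnj8 in HOMO, at 0.11 with the correction, 0.14 without WT2 and 0.35 with both (single libraries left out: -0.32 to 0.14), and for Abcc8 in HET, at 0.026 without HET1 (range -0.31 to 0.026). With the block the Actn2 call in HET was lost (adjusted p = 0.0546). With the correction and without WT2, Actn2 in HOMO was 0.035. In HOMO against HET, none of 9 was called under any alternative run, and signs turned for Kcnj2 (-0.0031 with the block, -0.0058 without HET3, -0.22 with a term for sex, range -0.30 without HOMO1 to 0.30 without HOMO2), Kcnj3 (-0.071 without HOMO2, range -0.14 without HET1 to 0.24 without HET2) and Abcc8 (0.0022 without HOMO3, 0.038 without HET2, 0.059 with a term for sex, range -0.21 without HET1 to 0.10 without HET3). The log2 ratio of Kcnj3 to Kcnj5 turned to 0.0091 without HOMO1, 0.0087 without HET1 and 0.023 without WT2 (lowest value -0.14), and that of Kcnj11 to Abcc9 to 0.21 with the correction, which was added to the ratios after seeing the data. By the longest transcript, 5 of 9 genes kept their rank in HOMO. The cause of these shifts was not tested. Depth limits the 9 genes little, since the lowest count was 273 (Kcnj2 in WT2). With 2 WT libraries, leaving out either takes the spread from the deletion groups alone.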

Other observations

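Transcription factor genes of heart muscle were also counted, since several are known to act on ion channel genes. Of 20, 6 were higher in each deletion genotype against WT, and 2 were lower in HOMO and 1 in HET, with median log2 fold changes of 0.41 and 0.25. Without WT2, 5 were higher in each, and 1 was lower in HOMO and none in HET. Foxo3, which encodes a forkhead factor restrained by insulin signalling, averaged 94.1 CPM in HOMO and 78.4 CPM in HET, against 19.9 and 7.73 CPM in WT (log2 2.77, adjusted p = 0.00102, and 2.51, adjusted p = 0.00140). Tbx20, a T-box factor of cardiomyocytes, averaged 138.8 CPM in HOMO and 136.2 CPM in HET, against 66.7 and 48.2 CPM in WT (log2 1.27, adjusted p = 0.00146, and 1.25, adjusted p = 0.00147). After the correction for gene properties Tbx20 stood at 0.53 in HOMO (adjusted p = 0.0403) and 0.46 in HET (adjusted p = 0.0660).

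Of 12 endothelial markers, 6 were lower in HOMO and 5 in HET and none was higher, and their summed level was 1865 to 2224 CPM in HOMO and 1873 to 2380 CPM in HET, against 2785 and 3152 CPM in WT. Without WT2, 4 were lower in HOMO and 2 in HET, and after the correction for gene properties 5 and 3. Of 10 fibroblast markers, 2 were lower in HOMO and 1 in HET, and without WT2 1 in each. Macrophage markers went both ways, with 2 higher and 2 lower of 10 in HOMO and 3 higher and 1 lower in HET, and without WT2 with 1 higher and 1 lower in each. Of 4 skeletal muscle markers tested, 1 was lower in HOMO and none in HET, and none in either without WT2. Both neuronal and endocrine markers that passed the filter were not called, and Ins1, Ins2 and Chga, which mark cells known to use SUR1, had 0 counts in every library. The part of these cell types in the channel results was not tested.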
